A study of Homo sapiens with 8 samples.

Results

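The subunits that define each form of the mammalian SWI/SNF (mSWI/SNF) chromatin remodelling complex were examined at the RNA level. They comprised 10 genes chosen by name, of 69215 genes counted: ARID1A, ARID1B and DPF2 for BAF, ARID2, PBRM1, BRD7 and PHF10 for PBAF, and BICRA, BICRAL and BRD9 for ncBAF. All 10 passed the filter on low counts that kept 15931 genes for testing. RNA was sequenced from G401, an established kidney rhabdoid tumor cell line without functional SMARCB1. The cells carried a Tet-On cassette, which doxycycline (Dox) switches on, for either SMARCB1 or GFP. Cells were exposed for 12 h to 0.1 µg/ml Dox, or to dimethylsulfoxide (DMSO) in its place. This gave 4 groups of 2 libraries, SMARCB1 Dox and SMARCB1 DMSO from the first line, and GFP Dox and GFP DMSO from the second. The study's methods describe several plates per condition that were pooled once harvested, so each library came from a pool, and the SMARCB1 and GFP lines were engineered separately. The labels say neither whether a line was a single clone nor whether the replicates were separate cultures, so p-values measured only the spread between these libraries.

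mSWI/SNF complexes use ATP to move or evict nucleosomes, and their forms share a core and an ATPase while differing in a few subunits. BAF is built on ARID1A or ARID1B and carries DPF2, PBAF is built on ARID2 and carries PBRM1, BRD7 and PHF10, and ncBAF is built on BICRA or BICRAL and carries BRD9. SMARCB1, the subunit lost in rhabdoid tumors, belongs to BAF and PBAF and is absent from ncBAF.

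Counts assigned to genes ranged from 29632090 to 37597477 per library, and mitochondrial genes took 18.9% to 27.9% of them. Levels are given as CPM, read counts set to a common library size with TMM factors. SMARCB1 was at 856 and 841 CPM in SMARCB1 Dox, at 0.343 and 0.637 CPM in SMARCB1 DMSO, and had 0 counts in all 4 GFP libraries, which allows at most 0.0974 CPM in any of them at a floor of 3 counts. VIM, a mesenchymal marker, was at 1250 to 1310 CPM in the SMARCB1 line and at 678 to 755 CPM in the GFP line. The leukocyte, endothelial and epithelial markers PTPRC, CD3E, PECAM1, CDH5, EPCAM and CDH1 reached at most 0.887 CPM, and HBB was at 2.49 to 3.67 CPM.

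With re-expression of SMARCB1, some subunits of PBAF and ncBAF changed. Comparing SMARCB1 Dox with SMARCB1 DMSO, 4 of the 10 genes passed the test (edgeR's quasi-likelihood test, Benjamini-Hochberg adjusted p under 0.05). PHF10, ARID2 and BICRAL fell and BICRA rose. Of all genes tested, 14% passed in this comparison, 8.33% as higher and 5.69% as lower. With 10 genes chosen by name, this difference in share was not tested. By class, 0 of 3 BAF, 2 of 4 PBAF and 2 of 3 ncBAF genes passed. The median log2 fold change was -0.11 for BAF, -0.19 for PBAF and 0.25 for ncBAF, and 0.00 for all genes tested. The ncBAF median was the value of BRD9, which did not pass, and lay between BICRAL (-0.34) and BICRA (0.44). PBAF genes ranged from -0.45 to 0.06, so these medians do not show a shift of a whole class. The plot of levels by library shows the underlying values.

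**Figure D1:**
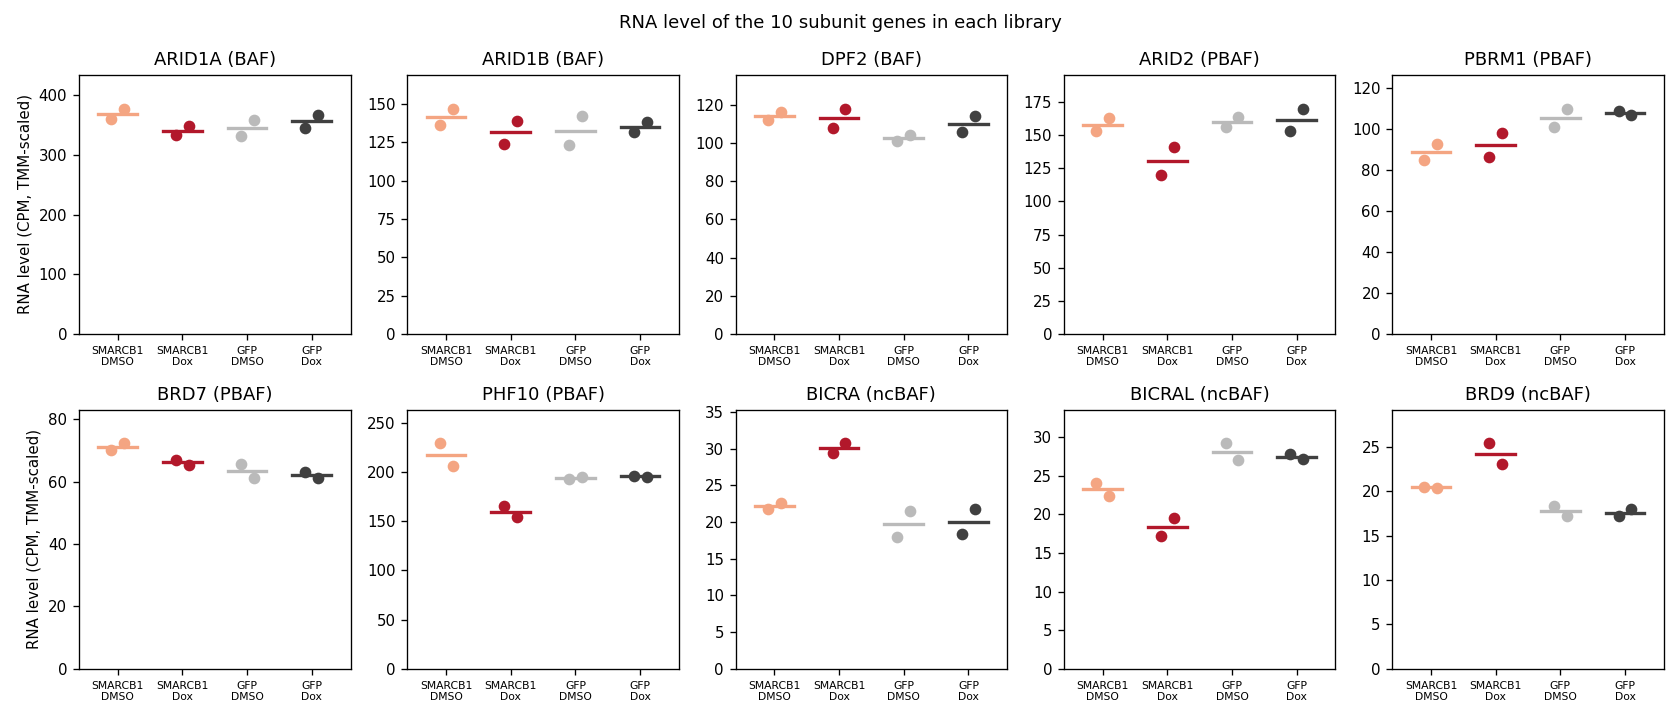
RNA level (CPM with TMM scaling, linear axis from 0) of each of the 10 genes in the 8 libraries, with 1 point per library and a line at the mean of each group of 2. PHF10 lies at 154 to 165 CPM in SMARCB1 Dox, below all other libraries, and BICRA at 29.4 and 30.7 CPM, above all other libraries.

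PHF10, a PHD-finger subunit of PBAF, changed most among the PBAF genes. It lies on the minus strand of chromosome 6 between 169703902 and 169725566 (GRCh38). It was at 165 and 154 CPM in SMARCB1 Dox and at 229 and 206 CPM in SMARCB1 DMSO. In GFP Dox it was at 196 and 195 CPM, and in GFP DMSO at 193 and 195 CPM. With this TMM scaling, the SMARCB1 Dox libraries were thus the lowest and the SMARCB1 DMSO libraries the highest of all 8. The top rank depended on the scaling. In TPM, a length-scaled share of each library described further below, SMARCB1 Dox (65.2 and 63.4) was again lowest. SMARCB1 DMSO (75.5 and 77.9 TPM) then lay below the GFP libraries (80.4 to 87.9 TPM). Unlike CPM, TPM carries no TMM factors here, and mitochondrial genes were kept in it. Mitochondrial genes took 27.9% and 23.9% of counts in SMARCB1 DMSO. They took 22.9% and 21.3% in SMARCB1 Dox and 18.9% to 21.5% in the GFP libraries. Their effect on TPM was not tested. PHF10 fell by 0.45 on the log2 scale (SE 0.0805, adjusted p = 0.000516, edgeR), or by 26.7%. The call held under all 18 alternative settings, with log2 fold changes from -0.52 to -0.35. In all, 485 bases of PHF10's exons (8.11%) overlap the protein-coding gene C6orf120, which runs on the other strand and whose counts ranged from 3355 to 5322. C6orf120 had a log2 fold change of -0.22 (adjusted p = 0.0547, edgeR) in the same comparison. The strand setting of the counting is not given in the sources used here, and the effect of this overlap on PHF10's counts was not tested.

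Sequences upstream of the start sites are shown for PHF10, BICRA and BICRAL, the genes with the largest log2 fold changes in either direction. Each is the 250 bases before a RefSeq start (GRCh38.p14), 5′ to 3′ on the gene's strand, and capitals mark the GC box GGGCGG on either strand. The PHF10 window is chr6:169724501-169724750 on the minus strand, the BICRA window chr19:47607946-47608195 and the BICRAL window chr6:42781802-42782051, both on the plus strand.
PHF10: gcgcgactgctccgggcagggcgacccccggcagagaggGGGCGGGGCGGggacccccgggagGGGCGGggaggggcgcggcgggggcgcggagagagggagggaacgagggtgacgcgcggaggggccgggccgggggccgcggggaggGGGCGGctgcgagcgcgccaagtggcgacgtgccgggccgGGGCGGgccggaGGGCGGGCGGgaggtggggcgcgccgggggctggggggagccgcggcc
BICRA: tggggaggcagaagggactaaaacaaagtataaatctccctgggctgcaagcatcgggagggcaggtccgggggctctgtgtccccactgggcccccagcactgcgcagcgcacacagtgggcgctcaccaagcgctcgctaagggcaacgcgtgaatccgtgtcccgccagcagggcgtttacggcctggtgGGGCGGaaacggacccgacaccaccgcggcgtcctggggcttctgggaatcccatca
BICRAL: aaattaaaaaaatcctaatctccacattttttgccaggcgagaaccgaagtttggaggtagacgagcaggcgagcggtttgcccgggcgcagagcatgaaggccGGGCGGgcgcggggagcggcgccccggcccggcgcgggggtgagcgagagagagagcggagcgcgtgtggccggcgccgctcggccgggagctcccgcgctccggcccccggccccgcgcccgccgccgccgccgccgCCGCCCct
Overlapping matches counted separately, the PHF10 window held 7 GC boxes, the BICRA window 1 and the BICRAL window 2. At least 1 GC box was found in 42.6% of the 35116 promoter windows of this length. Other motifs were searched on both strands, and none of the CCAAT box CCAAT (32.0% of all windows), the ETS site CCGGAAG (8.52%), the CRE core TGACGT (7.1%), the E-box CACGTG (6.34%) or the YY1 core AAGATGG (3.7%) was in these 3 windows. The CpG count was 39 in PHF10, 19 in BICRA and 39 in BICRAL, against a median of 11. GC content was 86.4%, 65.2% and 73.2%. High CpG counts were not particular to these genes. Among genes that did not pass, the count was 30 in ARID1A, 30 in DPF2 and 26 in BRD7. It was 26 and 40 in the windows of PBRM1, 36 and 32 in BRD9, and 5 and 37 in ARID1B. GC boxes numbered 3 in ARID1A, 0 in DPF2, 3 in BRD7, 0 and 6 in PBRM1, 3 and 1 in BRD9, and 0 and 4 in ARID1B. PHF10's RefSeq start lay 1066 bases from the start of its GENCODE gene, whereas those of BICRA and BICRAL coincided with it. RefSeq windows were matched for 9 of the 10 genes, and BICRA and BICRAL also had other start sites. There the CpG count was 30 for BICRA, and 11 and 3 for BICRAL, whose window with 11 also held a CCAAT box.

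ARID2, the ARID-domain subunit on which PBAF assembles, was the other PBAF gene that fell. Its levels were 120 and 141 CPM in SMARCB1 Dox and 153 and 163 CPM in SMARCB1 DMSO. Levels in the GFP line were 153 and 170 CPM with Dox and 156 and 164 CPM with DMSO. In CPM, both SMARCB1 Dox libraries were below the other 6, but they differed from each other more than those of any other group. In TPM, SMARCB1 Dox (22.9 and 27.9) overlapped SMARCB1 DMSO (24.3 and 29.7). ARID2 fell by 0.28 on the log2 scale (SE 0.0884, adjusted p = 0.038, edgeR), or by 17.6%. Without SMARCB1 Dox replicate 1 its log2 fold change was -0.17 (adjusted p = 0.364, edgeR) and without SMARCB1 DMSO replicate 2 -0.23 (0.164). Without GFP DMSO replicate 1 or 2 it remained at -0.28, with an adjusted p of 0.0511 and 0.0516 (edgeR).

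PBRM1, which binds acetylated histones through its bromodomains, and BRD7, the bromodomain subunit of PBAF, did not pass this test. PBRM1 was at 86.6 and 98.3 CPM in SMARCB1 Dox and at 84.8 and 92.5 CPM in SMARCB1 DMSO, and these ranges overlapped. Its log2 fold change was 0.06 (95% interval -0.12 to 0.24). BRD7 was at 67 and 65.3 CPM in SMARCB1 Dox and at 70.2 and 72.2 CPM in SMARCB1 DMSO. These ranges did not overlap, and the log2 fold change was -0.11 (-0.27 to 0.06). BRD7 shares 3593 bases of exon (41.8%) with ADCY7 on the opposite strand. ADCY7 had 4 to 112 counts against 1947 to 2384 for BRD7, and itself rose by 2.14 on the log2 scale (adjusted p = 0.000275, edgeR), and the effect of this overlap on BRD7's counts was not tested.

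In ncBAF, the paralogs BICRA and BICRAL moved in opposite directions. These subunits replace each other in the complex. BICRA, on the plus strand of chromosome 19 between 47608196 and 47703277, was at 29.4 and 30.7 CPM in SMARCB1 Dox and at 21.8 and 22.6 CPM in SMARCB1 DMSO. It was at 18.3 and 21.8 CPM in GFP Dox and at 17.9 and 21.5 CPM in GFP DMSO. Both SMARCB1 Dox libraries were above the other 6. BICRA rose by 0.44 on the log2 scale (SE 0.111, adjusted p = 0.00999, edgeR), or 1.35-fold. Without SMARCB1 DMSO replicate 1 the value was 0.41 (adjusted p = 0.0612, edgeR) and without SMARCB1 Dox replicate 2 it was 0.40 (0.0566).

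BICRAL, on the plus strand of chromosome 6 between 42782052 and 42868558, was at 17.2 and 19.6 CPM in SMARCB1 Dox and at 24.1 and 22.4 CPM in SMARCB1 DMSO. It was at 27.8 and 27.2 CPM in GFP Dox and at 29.2 and 27.0 CPM in GFP DMSO. In CPM, the SMARCB1 Dox libraries were the lowest, the SMARCB1 DMSO libraries came next and the GFP libraries were the highest. In TPM the GFP libraries were again highest, but SMARCB1 Dox (6.11 and 7.26) overlapped SMARCB1 DMSO (7.13 and 7.59). BICRAL fell by 0.34 on the log2 scale (SE 0.103, adjusted p = 0.0327, edgeR), or by 20.7%. The value was -0.24 (adjusted p = 0.262, edgeR) without SMARCB1 Dox replicate 1, -0.28 (0.191) without SMARCB1 DMSO replicate 1 and -0.33 (0.0502) without GFP Dox replicate 2. With DESeq2 it was -0.33 (adjusted p = 0.0529).

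BRD9, the bromodomain subunit of ncBAF, was at 25.4 and 23.1 CPM in SMARCB1 Dox and at 20.5 and 20.4 CPM in SMARCB1 DMSO. It was between 17.2 and 18.4 CPM in the 4 GFP libraries. In CPM, both SMARCB1 Dox libraries were above both SMARCB1 DMSO libraries, which were above the 4 GFP libraries. In TPM, SMARCB1 Dox (6.28 and 5.97) was again highest, but SMARCB1 DMSO (4.23 and 4.83) was not above the GFP libraries (4.67 to 4.87). The log2 fold change of 0.25 (95% interval 0.03 to 0.46) did not pass the adjusted test (adjusted p = 0.125, edgeR). Scaling by library totals, which moved the median of all genes to 0.09, gave 0.34 for BRD9 (adjusted p = 0.0372, edgeR). Under that scaling ARID2 (-0.19, adjusted p = 0.216) and BICRAL (-0.24, 0.154) did not pass.

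The BAF genes did not pass this test in edgeR or DESeq2, and 0 of 3 had an unadjusted p under 0.05 in edgeR. Of all 15931 genes tested, 4148 had such a p. ARID1A, whose ARID domain binds DNA, was at 333 and 349 CPM in SMARCB1 Dox and at 360 and 378 CPM in SMARCB1 DMSO, with a log2 fold change of -0.12 (95% interval -0.28 to 0.05). ARID1B, which takes the place of ARID1A in some BAF complexes, was at 124 and 139 CPM against 136 and 147 CPM, a log2 fold change of -0.11 (-0.29 to 0.07). DPF2, a double PHD-finger subunit, was at 108 and 118 CPM against 112 and 116 CPM, a log2 fold change of -0.01 (-0.17 to 0.16). The ranges overlapped for ARID1B and DPF2 and did not for ARID1A. These intervals leave room for falls of up to 0.29 on the log2 scale in this class.

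Dox in the GFP line controlled for Dox and for the expression of a foreign protein. None of the 10 genes passed the test there, and 0% of all genes did (edgeR). At an unadjusted p under 0.05, the counts were 0 of the 10 genes and 266 of all genes. With DESeq2, 0 of the 10 genes passed. The log2 fold changes of the 10 genes lay between -0.03 (BICRAL and BRD7) and 0.10 (DPF2), as the plot of Dox effects shows.

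**Figure D2:**
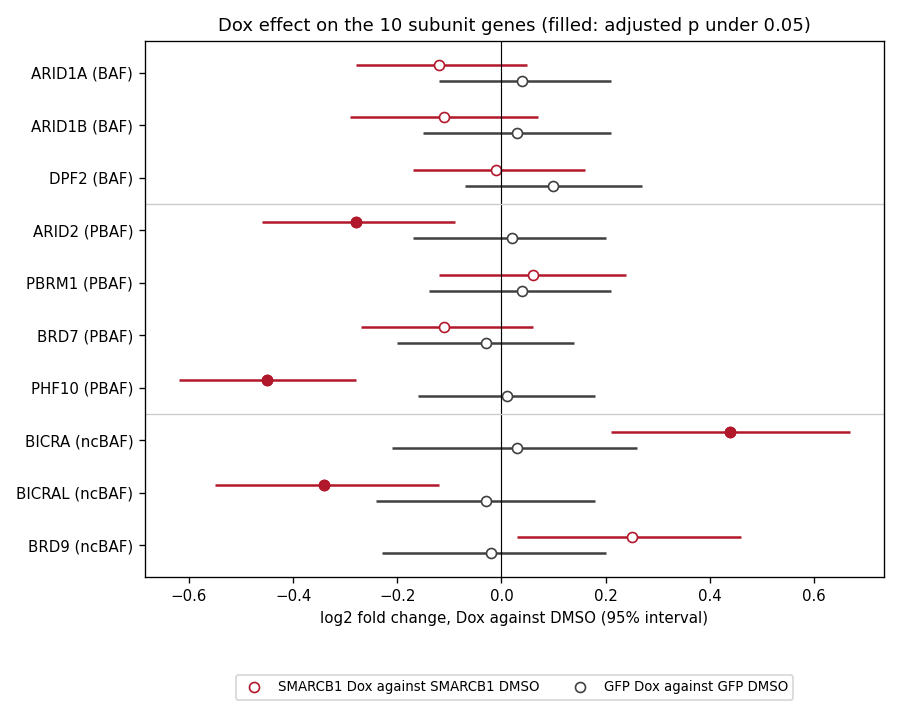
Log2 fold change of Dox against DMSO with its 95% interval (horizontal axis) for each gene, in the SMARCB1 line (red) and the GFP line (dark grey), with filled points for an adjusted p under 0.05. In the SMARCB1 line PHF10 (-0.45), ARID2 (-0.28), BICRAL (-0.34) and BICRA (0.44) are filled, and in the GFP line no gene is.

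The difference between the Dox effects of the SMARCB1 and GFP lines was tested directly. PHF10 was the only one of the 10 genes that passed, with a difference of -0.46 on the log2 scale (SE 0.114, adjusted p = 0.0191, edgeR), where 4.71% of all genes passed. The differences for BICRA (0.41, adjusted p = 0.177), BICRAL (-0.31, 0.291) and ARID2 (-0.29, 0.231) had unadjusted p-values under 0.05 and did not pass (edgeR). With PHF10, 4 of the 10 genes had such a p, and so did 2577 of all 15931 genes tested. PHF10 kept its call in 10 of 17 alternatives. It lost the call with scaling by library totals (-0.38, adjusted p = 0.0762, edgeR) and on leaving out any 1 of 6 libraries. These were GFP Dox replicate 1 (-0.45, adjusted p = 0.0908) or 2 (-0.46, 0.0790), GFP DMSO replicate 1 (-0.45, 0.0871) or 2 (-0.46, 0.0896), SMARCB1 DMSO replicate 1 (-0.38, 0.0713) and SMARCB1 Dox replicate 2 (-0.41, 0.0645, all edgeR).

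To compare levels between genes, counts were divided by exon length and expressed as TPM, the length-scaled share of a library's transcripts. PHF10 had the highest level, with a mean of 77.4 TPM over the 8 libraries (range 63.4 to 87.9), followed by ARID1A with 53.6 TPM (44.5 to 59.7). With this length, these ranges overlapped neither each other nor those of the other genes. ARID2 (29.9 TPM), DPF2 (29.1 TPM), PBRM1 (25.0 TPM) and BRD7 (18.5 TPM) came next, and each overlapped its neighbour in this order. BICRAL (8.90 TPM), BICRA (7.42 TPM), ARID1B (7.13 TPM) and BRD9 (5.06 TPM) were the lowest, and their ranges also overlapped from one to the next. The order depends on the length used. With the longest transcript, PHF10 (74.6 to 102 TPM) and ARID1A (73.1 to 95.5 TPM) overlapped, and ARID1A exceeded PHF10 in both SMARCB1 Dox libraries. ARID1B, with 45931 bases of annotated exon but 10813 in its longest transcript, then had a mean of 26.3 TPM.

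The PBAF genes made up 54.3% ± 0.766 (SD, n = 2) of the summed TPM of the 10 genes in SMARCB1 Dox and 58.5% ± 1.12 in SMARCB1 DMSO. In GFP Dox the share was 58.3% ± 0.879 and in GFP DMSO 58.9% ± 0.584. BAF took 36.5% ± 0.788 in SMARCB1 Dox against 34.0% ± 1.21 in SMARCB1 DMSO, and ncBAF 9.28% ± 0.0212 against 7.55% ± 0.0900. In GFP Dox and GFP DMSO, BAF stood at 33.9% ± 0.771 and 33.1% ± 0.754, and ncBAF at 7.86% ± 0.108 and 8.06% ± 0.170. The ncBAF share was thus highest and the PBAF share lowest in SMARCB1 Dox, but the genes of a class did not move together. Within PBAF, mean TPM was lower in SMARCB1 Dox than in SMARCB1 DMSO for PHF10 (64.3 against 76.7) and ARID2 (25.4 against 27.0). It was higher for PBRM1 (23.1 against 19.5) and BRD7 (18.6 against 17.5). The direction for BRD7 depended on the scaling, as TPM carries no TMM factors. In CPM, mean BRD7 was lower in SMARCB1 Dox than in SMARCB1 DMSO (66.1 against 71.2). Within ncBAF, BICRA (9.68 against 6.27) and BRD9 (6.13 against 4.53) were higher and BICRAL (6.68 against 7.36) lower. Groups of 2 cannot reach an exact two-sided permutation p below 0.333, so shares were not tested. RNA shares are not shares of assembled complexes, which were not measured here.

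Within the BICRA and BICRAL pair, BICRA made up 59.2% ± 1.50 (SD, n = 2) of the summed TPM in SMARCB1 Dox and 45.9% ± 1.92 in SMARCB1 DMSO. In the GFP line it took 39.3% ± 3.34 with Dox and 38.4% ± 4.43 with DMSO. In raw counts, there were 1.71 and 1.56 BICRA reads per BICRAL read in SMARCB1 Dox and 0.905 and 1.01 in SMARCB1 DMSO. In the 4 GFP libraries this ratio ran from 0.612 to 0.802. BICRA reads thus outnumbered BICRAL reads in both SMARCB1 Dox libraries and barely in 1 of the other 6. BRD7 took 75.2% ± 0.888 of the BRD7 and BRD9 sum in SMARCB1 Dox and 79.4% to 79.8% in the other groups. ARID1A held 88.2% to 88.4% of the ARID1A and ARID1B sum in all 4 groups, with 2.51 to 2.70 ARID1A reads per ARID1B read.

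**Figure D3:**
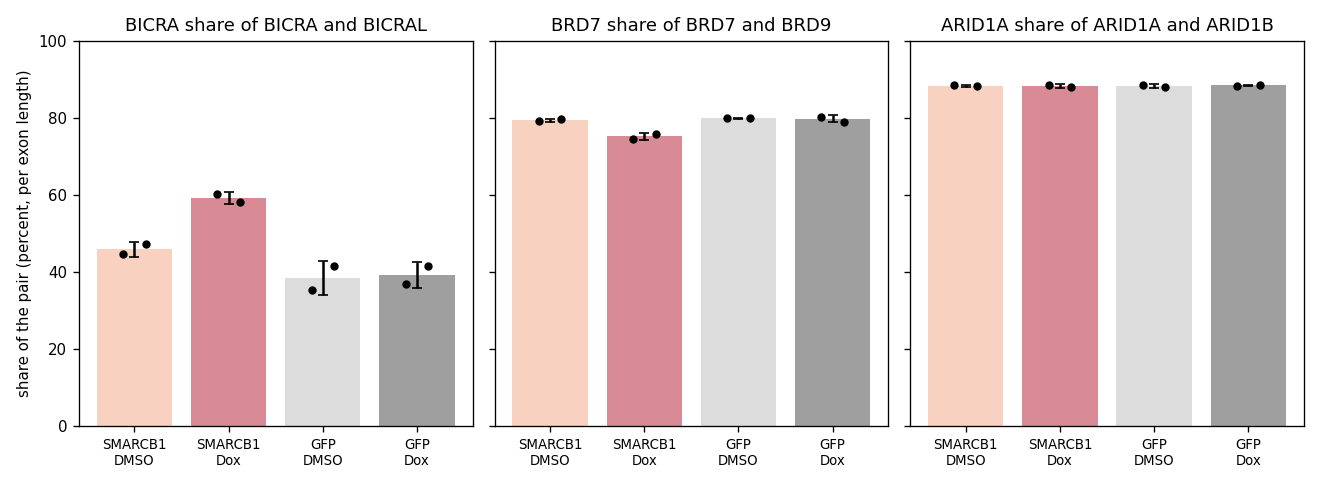
Share of the first gene in the summed TPM of each gene pair (percent, axis from 0 to 100) by group, where bars are means of 2 libraries, points are libraries and error bars are SDs. BICRA rises from 45.9% in SMARCB1 DMSO to 59.2% in SMARCB1 Dox, while ARID1A stays between 88.2% and 88.4%.

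The lines differed before induction. In SMARCB1 DMSO against GFP DMSO, 2 of the 10 genes passed, where 32% of all genes did. PBRM1 was at 84.8 and 92.5 CPM in SMARCB1 DMSO and at 101 and 110 CPM in GFP DMSO, a log2 fold change of -0.25 (SE 0.0853, adjusted p = 0.0280, edgeR). BICRAL had a log2 fold change of -0.27 (SE 0.101, adjusted p = 0.0437, edgeR). PBRM1 lost its call without SMARCB1 DMSO replicate 1 (-0.19, adjusted p = 0.188, edgeR) or GFP DMSO replicate 2 (-0.19, 0.240). BICRAL lost it without any 1 of 6 libraries: GFP Dox replicate 1 (-0.28, adjusted p = 0.0574) or 2 (-0.28, 0.0593), GFP DMSO replicate 1 (-0.22, 0.258) or 2 (-0.33, 0.0758), and SMARCB1 DMSO replicate 1 (-0.33, 0.0585) or 2 (-0.22, 0.216, all edgeR). BICRAL also did not pass with DESeq2 (-0.28, adjusted p = 0.0739) or with no expression filter (-0.28, adjusted p = 0.0677, edgeR). The other 8 genes did not pass, with log2 fold changes from -0.02 (ARID2) to 0.20 (BRD9). With the GC trend removed, BICRA (0.32, adjusted p = 0.028) and BRD9 (0.26, adjusted p = 0.0433) also passed as higher in SMARCB1 DMSO (edgeR).

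Between the induced lines, SMARCB1 Dox against GFP Dox, 6 of the 10 genes passed, where 38.8% of all genes did. These libraries are not those of the DMSO comparison, but they are shared with the Dox comparisons above. BICRA (0.58, SE 0.111, adjusted p = 0.000241, edgeR) and BRD9 (0.46, SE 0.103, adjusted p = 0.00111) were higher in the SMARCB1 line. BICRAL was lower by the same margin as BICRA was higher (-0.58, SE 0.102, adjusted p = 9.58e-05, edgeR). The PBAF genes ARID2 (-0.31, adjusted p = 0.00719), PHF10 (-0.29, 0.0058) and PBRM1 (-0.23, 0.0403) were lower too (edgeR). BICRA, BICRAL and BRD9 kept their calls under all 18 alternatives. PHF10 lost its call without SMARCB1 Dox replicate 2 (-0.24, adjusted p = 0.0556, edgeR). ARID2 lost it without SMARCB1 Dox replicate 1 (-0.20, 0.139) or GFP Dox replicate 2 (-0.24, 0.122). PBRM1 lost it without SMARCB1 Dox replicate 1 (-0.14, 0.335), GFP Dox replicate 1 (-0.21, 0.169) or 2 (-0.24, 0.109), or GFP DMSO replicate 1 (-0.23, 0.0513) or 2 (-0.23, 0.0517). The BAF genes had log2 fold changes between -0.06 and 0.04 and did not pass.

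Exon GC content moved with the Dox effect in the SMARCB1 line. Among all genes tested, the median log2 fold change was -0.08 below 42% GC and 0.14 from 57% GC upward. Genes were called higher in 4.51% of cases below 42% GC and in 14.7% from 57% GC upward, and called lower in 9.17% and 2.07%. In the GFP line the medians lay between 0.00 and 0.01. Among the 10 genes, BICRA (64.2% GC) and BRD9 (55.3%) had the most GC-rich exons, and ARID2 (38.9%) and PHF10 (41.5%) the least. BICRAL has 43.9% GC.

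With the GC trend removed, PHF10 fell by 0.40 on the log2 scale and BICRAL by 0.30, and both passed (edgeR). BICRA then stood at 0.23 (adjusted p = 0.191, edgeR) and ARID2 at -0.22 (adjusted p = 0.119), and neither passed in this fit. BRD9 stood at 0.13. What produced the trend was not tested. The plot against GC content shows both sets of values.

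**Figure D4:**
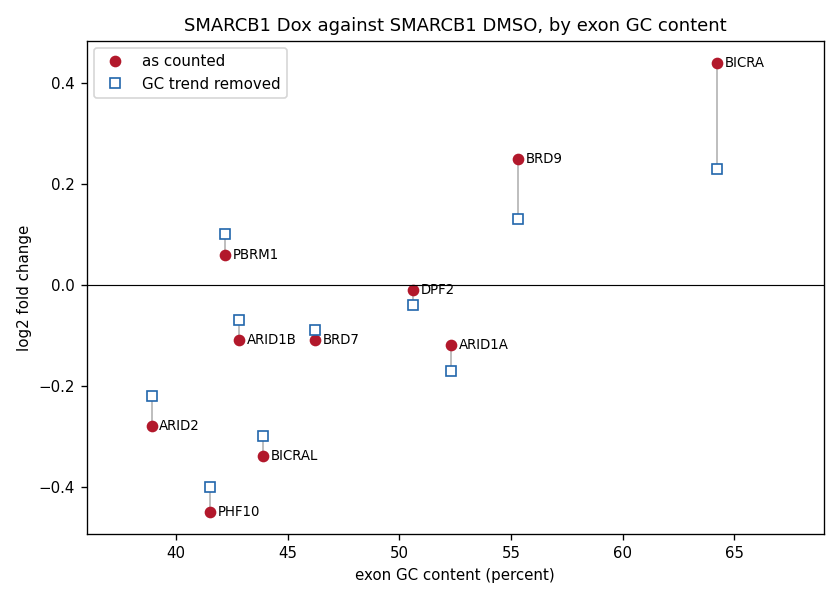
Log2 fold change in SMARCB1 Dox against SMARCB1 DMSO (vertical axis) by exon GC content in percent (horizontal axis) for the 10 genes, as counted (red circles) and after removal of the GC trend of all genes (open blue squares). BICRA moves from 0.44 to 0.23 and PHF10 from -0.45 to -0.40.

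The other subunits of mSWI/SNF gave a comparison. Of 18 core, ATPase and accessory subunits listed, 15 were tested, and SMARCA2, ACTL6B and DPF3 were too low, with at most 13 counts in a library. With Dox in the SMARCB1 line, 1 rose and 1 fell, near the 14% of all genes that passed, and the median log2 fold change was 0.02. BCL7A, an accessory subunit shared by the complexes, fell by 0.37 (adjusted p = 0.00623, edgeR). DPF1, a paralog of DPF2, rose by 0.81 (adjusted p = 0.0243, edgeR) from a mean of 1.84 to 3.23 CPM, far below DPF2, and did not pass with DESeq2. In the GFP line, and for the difference between the Dox effects, 0 of 15 passed (edgeR), with 0 and 2 at an unadjusted p under 0.05. Of all 15931 genes tested, 266 and 2577 had such a p. With DESeq2, 0 of these subunits passed in either comparison.

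Between the lines, 3 of these subunits were higher and 3 lower in SMARCB1 DMSO than in GFP DMSO, and 3 and 3 again in SMARCB1 Dox against GFP Dox. These 6 of 15 lie near the shares of all genes that passed, 32% and 38.8%. The ATPase SMARCA4 was lower in both (-0.31 and -0.34, adjusted p = 0.0156 and 0.00666, edgeR), as was the core subunit SMARCC1 (-0.30 and -0.34, adjusted p = 0.0124 and 0.00454). SMARCD3 was lower in both as well (-0.41 and -0.46), and BCL7C higher (0.58 and 0.41). With DMSO, BCL7A (0.51) and SS18 (0.22) were also higher, and with Dox, ACTB (0.23) and SMARCD2 (0.24).

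A list of 27 other chromatin remodelling genes, all tested, held ATPases and partner proteins of the ISWI, CHD and INO80 families, along with the related ATPases HELLS and ATRX. In SMARCB1 Dox against SMARCB1 DMSO, BAZ1A, CECR2, MBD3 and GATAD2A rose and 0 fell, so that 4 of 27 passed, a share near the 14% of all genes. The median log2 fold change was 0.08. In the GFP line 0 of 27 passed (edgeR), with 0 at an unadjusted p under 0.05 and 0 called by DESeq2. For the difference between the Dox effects, CECR2 (0.96) and BAZ1A (0.53) passed (adjusted p = 0.0154 for each, edgeR).

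Levels were also followed across the 8 libraries as a pattern. Among 12402 protein-coding genes, the one whose log2 CPM correlated most closely with each member was PLAU for PHF10 (Pearson's r = 0.989), ZSCAN30 for ARID2 (0.987), SEC31A for PBRM1 (0.991) and TYW3 for BRD7 (0.981). It was STAT5B for BICRA (0.986), IL17RD for BICRAL (0.992) and TNFRSF9 for BRD9 (0.996). For the BAF genes it was PIBF1 for ARID1A (0.963), KNL1 for ARID1B (0.942) and PPM1L for DPF2 (0.949). Among the 10 genes themselves, ARID1A was most like ARID1B (0.919) and BICRA most like BRD9 (0.864), while BICRAL was least like BRD9 (-0.96) and BICRA (-0.923). All 8 points share 4 groups, so these values describe group patterns and carry no p. The gene named for each member was the best of 12402 over only 8 libraries, a choice that by itself favours a high r.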

How the data were processed

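Gene-level counts were used as deposited. The authors had aligned reads with STAR and counted them with HTSeq (versions not given) on hg38, over exons in intersection-strict mode with GENCODE v42. For the RNA libraries the labels give a ribosome profiling kit and the study's methods a directional RNA kit. Entries that name no gene (27% to 29.3% of reads) were left out. Symbols, positions, exon lengths and GC content came from GENCODE v44 (62625 of 69215 genes matched).

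Groups and replicate numbers came from the sample titles. All 8 libraries were fitted in edgeR 4.0.16 (R 4.3.3, filterByExpr, TMM, quasi-likelihood test, 1 mean per group), with Benjamini-Hochberg adjustment over 15931 genes and a threshold of 0.05. The study's methods name DESeq2, run as an alternative (version 1.42.0). Other alternatives were other scalings and filters, no mitochondrial counts, only the compared groups, a replicate block, removal of the GC trend and leaving out each library. For the GC trend, a lowess curve (span 0.3) of log2 CPM against GC content was fitted per library. Its deviation from the mean curve of the libraries was removed. TPM used the union of exons, without TMM factors and with mitochondrial genes kept. The fits were tested on simulated data. Replicates differed beyond sampling noise (chi-square per degree of freedom 8.03 to 21.9). PCR copies of a molecule are counted as separate reads, so a floor of 3 counts covers counting error only. The genes described are the 10 members in every comparison, SMARCB1, listed subunits that passed, overlapping genes and the best-correlated gene per member; the other remodellers named were chosen after their values were seen. One marker gene is not reported here. The members and lists were chosen with earlier results of these data known.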

Additional observations from a re-analysis of the deposited data

Results flagged for a closer look

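PHF10 was marked because it responded to Dox differently in the SMARCB1 line than in the GFP line, by a direct test (-0.46 on the log2 scale, adjusted p = 0.0191, edgeR). That call held in only 10 of 17 alternative settings. Both SMARCB1 Dox libraries (165 and 154 CPM) were below both SMARCB1 DMSO libraries (229 and 206 CPM), while the 4 GFP libraries lay between 193 and 196 CPM. The level of PHF10 in SMARCB1 DMSO was 12.3% above that in GFP DMSO, a difference that did not pass the test (adjusted p = 0.122, edgeR). On the log2 scale this was 0.17, and it ran from 0.05 to 0.24 across the alternative settings. In TPM, which carries no TMM factors, SMARCB1 DMSO (mean 76.7) was below GFP DMSO (82.3).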

How the results depend on the processing

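Comparing SMARCB1 Dox with SMARCB1 DMSO, 4 of the 10 genes passed, against 2 with only the groups compared, 2 with the GC trend removed, 4 with the GC trend removed and the replicate block, and 2 to 4 on leaving out 1 library. For the difference between the Dox effects, 1 passed, against 0 with library totals, 2 with the replicate block (PHF10, and ARID2 at -0.29 with an adjusted p of 0.0498 in edgeR) and 0 to 1 on leaving out 1 library. In SMARCB1 DMSO against GFP DMSO, 2 passed, against 1 with DESeq2, 1 with no expression filter, 4 with the GC trend removed with or without the replicate block, and 0 to 2 on leaving out 1 library. In GFP Dox against GFP DMSO, 0 passed throughout, and in SMARCB1 Dox against GFP Dox the count stayed within 1.5 times of 6. With the GC trend removed and the replicate block, ARID1A (-0.17, adjusted p = 0.0414, edgeR) and ARID2 (-0.22, 0.0116) passed in the first of these comparisons and BICRA (0.23, 0.0639) did not. No called value changed sign. In the SMARCB1 line's Dox comparison, PHF10 passed in 18 of 18 alternatives, BICRA in 14, and ARID2 and BICRAL in 11 each. Library totals moved the median of all genes from 0.01 to -0.10 in SMARCB1 DMSO against GFP DMSO. Same-numbered libraries correlated at 0.0309 to 0.148 in their deviations from group means. With the replicate block, genes passing rose from 2234 to 3149 in SMARCB1 Dox against SMARCB1 DMSO. For the difference between the Dox effects they rose from 750 to 1282, and in the GFP line they stayed at 0. With 2 replicates per group, these values do not show whether the numbers pair the samples. The causes of these changes were not tested.

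Shares depended on the length used. The mean shares over the 8 libraries were 34.3% for BAF, 57.5% for PBAF and 8.19% for ncBAF with all exons, 43.9%, 49.3% and 6.85% with the longest transcript, and 50.9%, 43.3% and 5.76% in CPM without length. In the same order of settings, the ARID1A share of its pair was 88.3%, 76.7% and 72.3% and the BRD7 share 78.5%, 74.5% and 76.7%. The BICRA share was 45.7% with all exons and 51.6% with the longest transcript. With 2 libraries per group and SEs of 0.0798 to 0.111 in that same Dox comparison, the smallest change that passed among the 10 genes was the -0.28 of ARID2.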
